A study of Homo sapiens with 9 samples.

Results

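The 50 genes described here work in G2 and mitosis, the stages in which a cell checks its copied chromosomes, condenses them, attaches them to the spindle and divides. They were a list written from general knowledge of the cell cycle, with earlier results of these data known, and were matched by Ensembl gene ID. All 50 were present among the 60308 genes in the count files, and all 50 passed the filter on low counts that left 18435 genes for testing. RNA had been sequenced from 9 cultures of MCF10A, an immortalised but non-cancerous line of human breast epithelial cells. Every culture, controls included, carried ectopic MYC and PI3K with the activating change H1047R, and was growing asynchronously when doxycycline, at 2 µg/mL, was added to switch its hairpin on for 72 hours. The groups, with 3 replicates each, held hairpin shG9a_4 or shG9a_1, both directed at EHMT2, which encodes G9a, a methyltransferase of histone H3 lysine 9, or a scrambled control hairpin, shSCR. All groups therefore share the 2 oncogenes, the doxycycline and a hairpin, and none is the parental line without them. The comparisons ask whether knockdown of EHMT2 was accompanied by a different level of mitotic transcripts.

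Mitotic genes are transcribed periodically. In quiescent and early-cycle cells the DREAM complex holds many of them off, and from S phase on the transcription factors B-MYB and FOXM1, bound with the MuvB core, switch them on. Their levels in a culture therefore follow the share of cells that are cycling, and they are widely used to grade proliferation in breast tissue and breast tumours. Many of their promoters carry a CHR element, TTTGAA, next to the start of transcription, to which MuvB binds, and CCAAT boxes upstream of it, which bind NF-Y.

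These motifs are shown first, in the promoters of 6 of the genes. The list was not chosen on the motifs, but they are common in genes of this kind, so they are no independent feature of it. The windows were taken from RefSeq (build GRCh38.p14), which had an entry for 42 of the 50 genes, and run 5′ to 3′ along the strand of the gene from 110 bases before the start of transcription to 30 bases after it. Capitals mark every match to TTTGAA or CCAAT on either strand, so TTCAAA and ATTGG count too. NUF2 (chr1:163321844-163321983, plus strand), HMMR (chr5:163460522-163460661, plus strand) and ESPL1 (chr12:53268189-53268328, plus strand) are shown because NUF2 had the largest difference between shG9a_4 and shSCR, HMMR the lowest p in shG9a_1 and ESPL1 the lowest log2 fold change there. MKI67 (chr10:128126394-128126533, minus strand) is shown because it differed between replicate numbers, and PLK1 (chr16:23678779-23678918, plus strand) and CCNB2 (chr15:59105036-59105175, plus strand) because each has a single CHR match at the same distance from the start.
NUF2: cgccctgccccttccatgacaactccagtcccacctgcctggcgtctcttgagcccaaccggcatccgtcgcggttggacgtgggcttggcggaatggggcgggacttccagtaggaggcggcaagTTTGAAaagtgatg
HMMR: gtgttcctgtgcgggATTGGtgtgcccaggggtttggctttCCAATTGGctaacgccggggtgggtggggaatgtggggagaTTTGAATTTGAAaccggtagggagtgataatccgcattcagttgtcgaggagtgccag
ESPL1: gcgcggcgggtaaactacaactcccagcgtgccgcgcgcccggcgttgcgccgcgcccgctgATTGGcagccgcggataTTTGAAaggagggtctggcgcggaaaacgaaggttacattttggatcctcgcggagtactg
MKI67: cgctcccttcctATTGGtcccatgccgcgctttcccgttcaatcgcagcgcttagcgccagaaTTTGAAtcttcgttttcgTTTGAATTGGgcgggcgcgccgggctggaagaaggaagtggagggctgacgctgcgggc
PLK1: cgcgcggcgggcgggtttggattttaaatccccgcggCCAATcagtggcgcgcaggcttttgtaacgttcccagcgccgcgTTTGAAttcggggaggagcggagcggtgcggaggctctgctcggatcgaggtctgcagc
CCNB2: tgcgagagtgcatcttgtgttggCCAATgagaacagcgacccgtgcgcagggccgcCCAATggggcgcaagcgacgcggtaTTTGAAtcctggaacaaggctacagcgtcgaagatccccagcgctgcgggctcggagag
In HMMR a pair of CHR matches stand head to tail, at 28 and 22 bases before the start, below 3 CCAAT matches. In PLK1 and CCNB2 the CHR match begins 29 bases before the start, and in ESPL1 31 bases before it, with a CCAAT match 48 bases before the start. MKI67 has CHR matches at 47 and 29 bases before the start, and the last base of the second also begins a CCAAT match on the other strand. NUF2 has its only CHR match 17 bases after the start and no CCAAT match in this window. The whole RefSeq windows run from 250 bases before to 50 after the start. Of 53 such windows of the listed genes, 33 held a CHR match (62.3%), against 15.2% of all 35116 windows. By gene, 30 of 42 had a CHR match, whereas all 6 shown here have one. A CCAAT match was in 39 of the 53 (73.6%, against 34.6% of all windows), and both motifs were in 26 of them (49.1%, against 5.90%). The E-box CACGTG, a sequence to which MYC binds with MAX, was in 5 of the 53 (9.43%, against 7.26%). These are matches of letters and were not tied to the binding of any factor. Within the 53 windows, 2 pairs of matches to different motifs overlapped.

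Levels are given as CPM, the read count of a gene scaled to a common library size. The targeted gene EHMT2 (ENSG00000204371.11) had 32.1, 27.2 and 33.5 CPM in shG9a_4, 17.6, 22.6 and 21.02 CPM in shG9a_1, against 51.1, 45.2 and 45.4 CPM in shSCR. All 6 knockdown libraries lay below all 3 shSCR libraries, and the shG9a_1 libraries lay lowest. In shG9a_1 EHMT2 fell by 1.21 on the log2 scale (adjusted p = 0.00766, edgeR quasi-likelihood test across all genes). It no longer passed when any of 3 libraries was left out, with an adjusted p of 0.0513 without shG9a_1 replicate 2, of 0.0623 without shG9a_1 replicate 3 and of 0.0611 without shSCR replicate 1. In shG9a_4 the log2 fold change was −0.61, which did not pass with the edgeR quasi-likelihood test (adjusted p = 0.259). It passed with DESeq2 (adjusted p = 0.000912) and with edgeR's likelihood ratio test (adjusted p = 0.00298). It also passed with the quasi-likelihood test without the filter on low counts (adjusted p = 2.24e-05), but under no other alternative. Library depth was 53065611 to 76958831 reads in genes. All 11 breast epithelial markers checked were above 1 CPM, and the 5 leukocyte markers summed to at most 0.275 CPM. Of 9 fibroblast markers 4 were above 1 CPM. The 9 summed to 163 to 451 CPM in shG9a_4, 225 to 450 CPM in shG9a_1 and 180 to 362 CPM in shSCR. Most of this sum was DCN, at a mean of 290 CPM, followed by FAP at 24.1 CPM. COL1A2, COL3A1, PDGFRA, PDGFRB and THY1 averaged at most 0.501 CPM. The endothelial markers summed to 1.40 to 2.98 CPM. The part of these levels in the differences described here was not tested.

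The mitotic genes were detected in all 9 libraries, the lowest single level being 15.8 CPM, of SPC25. Summed over the 50, their level was 9480, 10410 and 9753 CPM in shG9a_4, 9018, 8811 and 9969 CPM in shG9a_1, against 9722, 9353 and 9744 CPM in shSCR. The means were 9881 ± 478 CPM in shG9a_4, 9266 ± 617 CPM in shG9a_1 and 9606 ± 220 CPM in shSCR (SD, n = 3 each), and the libraries of the 3 groups overlapped. Per kilobase of transcript, CCNB1, the cyclin that drives entry into mitosis with CDK1, was highest at 163 CPM per kb, followed by the securin gene PTTG1 at 141 and the topoisomerase gene TOP2A at 124. The lowest were ESPL1, the gene of the protease separase, at 8.38 CPM per kb, and the kinetochore gene SPC25 at 12.4. The smallest number of reads behind any of these genes in a library was 865, for SPC25.

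**Figure D1:**
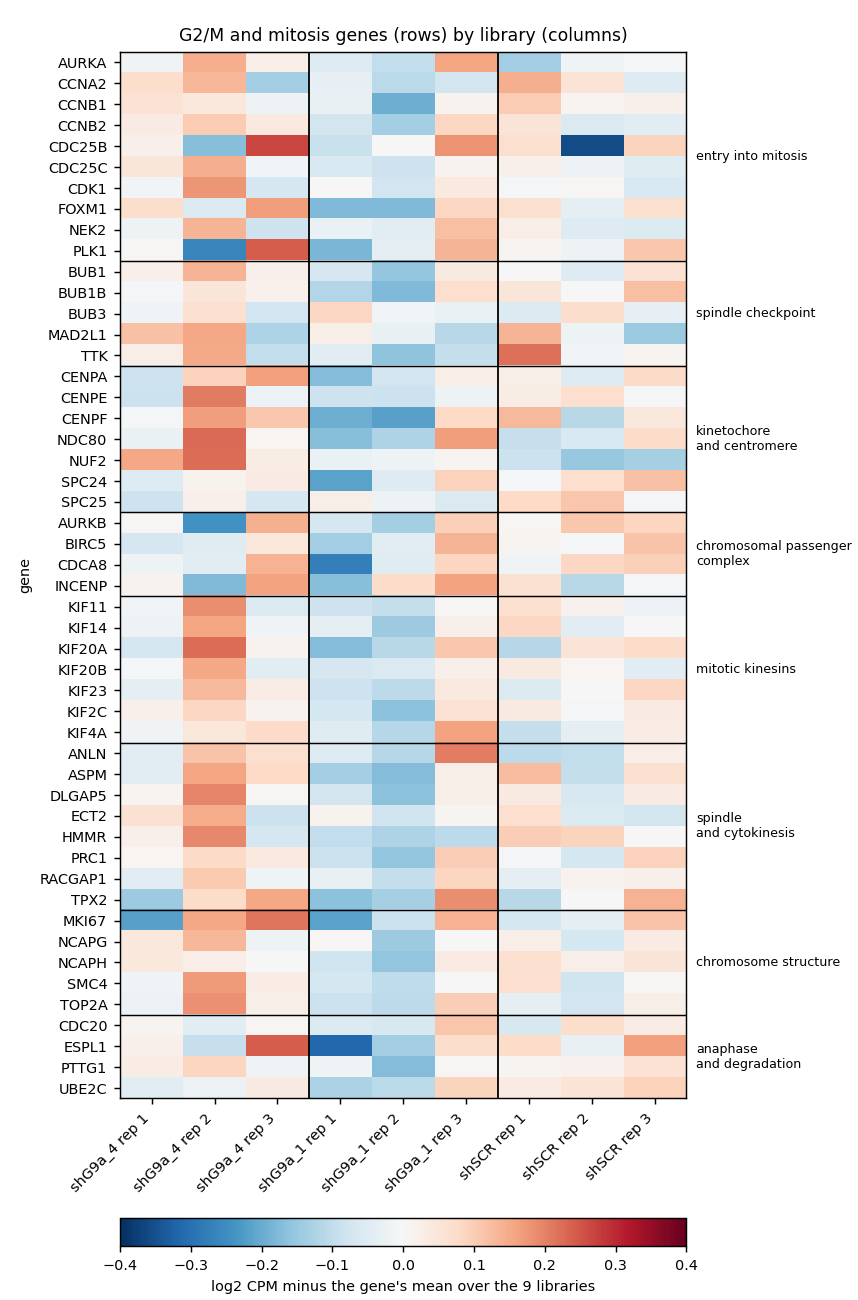
Level of the 50 genes in the 9 libraries as log2 CPM minus the gene's own mean over all libraries, in 8 roles from entry into mitosis to anaphase and degradation. Red is above and blue below the gene's mean. The column of shG9a_4 replicate 2 is red for most genes and that of shG9a_1 replicate 2 blue, while replicates of the same hairpin differ.

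No mitotic gene passed the test with either hairpin. With edgeR, 0 of 50 passed an adjusted p of 0.05 in shG9a_4 against shSCR, where 0.0271% of all genes tested did, and 0 of 50 passed in shG9a_1 against shSCR, where 0.038% did. The same count was 0 with both hairpins together against shSCR (0.0488% of all genes) and in shG9a_4 against shG9a_1 (0% of all genes). DESeq2, edgeR's likelihood ratio test, voom and the fit with the replicate number as a block also called 0 of the 50 in each of these 4 comparisons. Over all genes, these tools called more in some comparisons. The block called 14 genes in shG9a_4 (0.0759%), 143 in shG9a_1 (0.776%), 34 with both hairpins (0.184%) and 0 in shG9a_4 against shG9a_1, where the fit without it called 5, 7, 9 and 0. DESeq2 called 0.114% of all genes in shG9a_4, 0.434% in shG9a_1, 0.217% with both hairpins and 0.0325% in shG9a_4 against shG9a_1. With the likelihood ratio test the shares were 0.0922%, 0.228%, 0.119% and 0.0271% in the same order of comparisons, and without the filter on low counts, where again 0 of the 50 passed, they were 0.137%, 0.805%, 0.352% and 0.296%. With voom they were 0.0271%, 0.038%, 0.0488% and 0%. At an unadjusted p under 0.05, which 2.38% of all genes met in shG9a_4 and 7.5% in shG9a_1, the mitotic genes had NUF2 alone in shG9a_4 and HMMR alone in shG9a_1. With both hairpins together it was NUF2 again (4.74% of all genes), and in shG9a_4 against shG9a_1 NUF2 and HMMR (4.09% of all genes). RNA from a whole culture cannot tell fewer cells in G2 and mitosis from less mitotic RNA per cell.

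The precision behind this was high for the list. The median standard error of a log2 fold change of shG9a_4 against shSCR was 0.076 over the 50 genes and 0.154 over all genes. Within a group, the SD of log2 CPM had a median of 0.090 for the 50 genes, 0.187 for all genes and 0.100 for the 7800 genes in the same range of levels. The 95% intervals of the 50 log2 fold changes reached from −0.31 to 0.40 for shG9a_4 and from −0.43 to 0.39 for shG9a_1. No interval therefore reached a halving or a doubling, which is 1 on the log2 scale. The estimates themselves lay within 0.1 of 0 for 45 of the 50 genes in shG9a_4 (90%, against 56.9% of all genes) and for 35 in shG9a_1 (70%, against 44.3%).

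**Figure D2:**
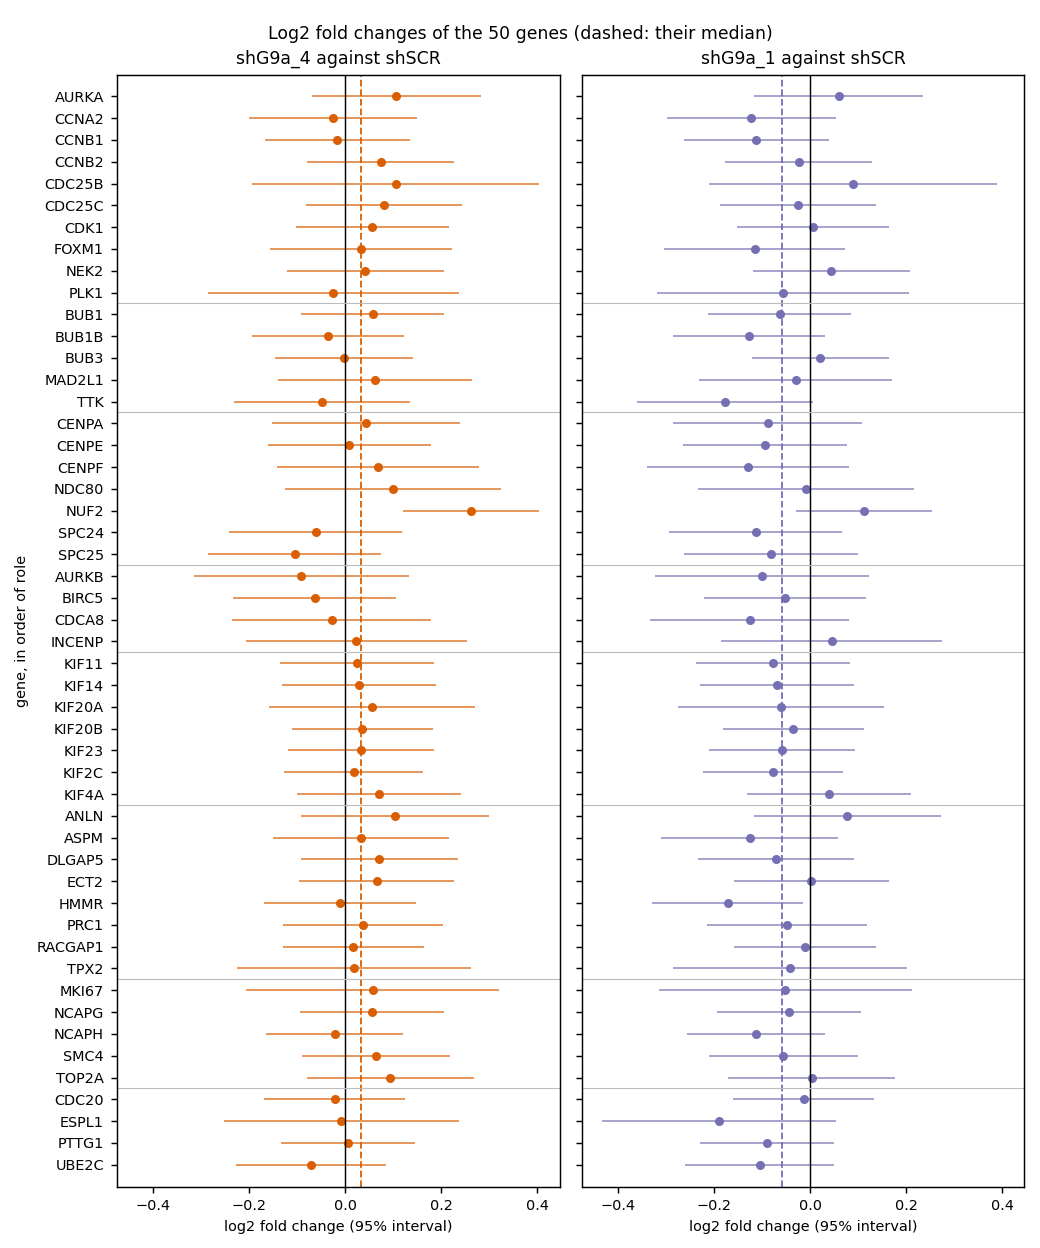
Log2 fold change of each of the 50 genes, with its 95% interval, in shG9a_4 (left) and in shG9a_1 (right) against shSCR, from a fit to all 9 libraries. Dashed lines are the medians, 0.032 for shG9a_4 and −0.058 for shG9a_1. Only the interval of NUF2 on the left and that of HMMR on the right do not cross 0.

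The small differences leaned to opposite sides with the 2 hairpins. In shG9a_4 16 of the 50 log2 fold changes were negative (32%, against 49.2% of all genes), with a median of 0.032 beside 0.0021 over all genes. In shG9a_1 39 were negative (78%, against 49.8%), with a median of −0.058 beside 0.00086 over all genes. Set directly against shG9a_1, shG9a_4 was higher for 44 of the 50 and lower for 6 (12%, against 50.2% of all genes), with a median of 0.094. Both comparisons with the control share the 3 shSCR libraries. None of these differences passed for a single gene. Both medians moved with single libraries. Without shG9a_4 replicate 2 the median of shG9a_4 was −0.0048, with 27 of 50 negative, and without shSCR replicate 2 it was 0.0029, with 24 negative. Without shG9a_1 replicate 2 the median of shG9a_1 was −0.028, and without its replicate 3 it was −0.118, with 46 negative.

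Within single replicate numbers the medians did not all lean the same way. Within replicate number 1, the median difference of shG9a_4 minus shSCR over the 50 genes was −0.020 on the log2 scale, within number 2 it was 0.15 and within number 3 −0.016. The corresponding medians of shG9a_1 minus shSCR were −0.11, −0.10 and 0.021. Lower in shG9a_1 than in shSCR in all 3 numbers were 20 of the 50 genes (40%, against 19.6% of all genes), and 1 was higher in all 3 (2%, against 19.5%). For shG9a_4 4 were lower and 6 higher in all 3 numbers (8% and 12%, against 12.5% and 12.5% of all genes). By library, shG9a_4 replicate 2 held the highest of the 9 levels for 25 of the 50 genes, shG9a_1 replicate 2 the lowest for 26 and shG9a_1 replicate 1 the lowest for 11.

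The genes of entry into mitosis come first among the roles. Of these 10, 7 were higher and 3 lower in shG9a_4 than in shSCR, and 4 were higher and 6 lower in shG9a_1, with none past the threshold. CDK1, the kinase that drives mitosis, had 211, 239.8 and 202 CPM in shG9a_4, 212, 201 and 218 CPM in shG9a_1, against 211, 213 and 203 CPM in shSCR. Its highest library was shG9a_4 replicate 2, and the others lay close together. CCNB1, the B-type cyclin that activates CDK1, had 368, 364 and 348 CPM in shG9a_4, 346, 309 and 357 CPM in shG9a_1, against 379, 356 and 358 CPM in shSCR. Only shG9a_1 replicate 2 stood below the rest. CCNA2, the cyclin of S phase and G2, had 225, 235 and 195 CPM in shG9a_4, 209, 199 and 204 CPM in shG9a_1, against 237, 222 and 207 CPM in shSCR. The shG9a_1 libraries lay low but overlapped those of shSCR, and shG9a_4 held the lowest of the 9 as well as the second highest. The second B-type cyclin gene, CCNB2, ranged over 84.8 to 99.998 CPM.

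The phosphatases and kinases that switch CDK1 on varied more between libraries than between hairpins. CDC25B, a phosphatase that removes the inhibitory phosphates from CDK1, had 96.8, 84.7 and 115 CPM in shG9a_4, 89.6, 95.3 and 108 CPM in shG9a_1, against 99.7, 74.5 and 101 CPM in shSCR. It had the widest spread of the 50 genes, with its highest library 1.54 times its lowest. CDC25C, its later-acting relative, had 29.6, 31.7 and 28.5 CPM in shG9a_4, 27.5, 27.1 and 28.96 CPM in shG9a_1, against 29.1, 28.2 and 27.7 CPM in shSCR. The groups overlapped, and on the opposite strand lay 7.07% of the stranded reads at this locus, which the reverse-strand counts leave out. PLK1, the polo-like kinase of mitotic entry and spindle assembly, had 75.4, 62.8 and 88.9 CPM in shG9a_4, 66.2, 73.4 and 82.5 CPM in shG9a_1, against 75.8, 74.1 and 81.1 CPM in shSCR. Replicate 2 was its lowest library in shG9a_4 and in shSCR, and replicate 3 its highest in every group.

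AURKA, the Aurora kinase at the spindle poles, had 186, 207 and 191 CPM in shG9a_4, 181, 175 and 209 CPM in shG9a_1, against 170.1, 185 and 186 CPM in shSCR. It had the second highest log2 fold change of the 50 genes in shG9a_4, at 0.11 ± 0.080 (SE, unadjusted p = 0.212, edgeR), and its groups overlapped. FOXM1, the transcription factor that switches on many of these genes, had 110.1, 101 and 118 CPM in shG9a_4, 92.8, 92.8 and 111 CPM in shG9a_1, against 109.6, 102 and 109.6 CPM in shSCR. The lowest 2 libraries were both of shG9a_1, but the third shG9a_1 library was above all shSCR libraries. NEK2, a kinase that separates the centrosomes, ranged over 81.6 to 95.03 CPM.

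The spindle checkpoint holds anaphase back until every kinetochore is attached. Of its 5 genes 2 were higher in shG9a_4 than in shSCR, and 1 was higher in shG9a_1. BUB1, a checkpoint kinase at kinetochores, had 172, 187 and 172 CPM in shG9a_4, 162, 153 and 174 CPM in shG9a_1, against 169.97, 164 and 177 CPM in shSCR. BUB1B, the gene of BUBR1, an inhibitor of the anaphase-promoting complex, had 105, 109.7 and 107 CPM in shG9a_4, 97.8, 93.8 and 111 CPM in shG9a_1, against 109.5, 106 and 115 CPM in shSCR. For both, shG9a_1 replicate 2 was the lowest library. BUB3, which brings BUB1 and BUBR1 to kinetochores, had 269.8, 285 and 258 CPM in shG9a_4, 289, 270.2 and 268 CPM in shG9a_1, against 262, 286 and 266 CPM in shSCR. It was among the steadiest genes of the list, its highest library being 1.12 times its lowest. MAD2L1, the gene of the checkpoint protein MAD2, had 181, 186 and 154 CPM in shG9a_4, 170.1, 164 and 155 CPM in shG9a_1, against 184, 165 and 151 CPM in shSCR. In each group its replicate 3 was the lowest.

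TTK, the gene of the kinase MPS1 at the top of the checkpoint, had the second lowest log2 fold change of the list in shG9a_1. Its levels were 117, 128 and 108 CPM in shG9a_4, 112, 103 and 108 CPM in shG9a_1, against 134, 114 and 116 CPM in shSCR. All 3 shG9a_1 libraries were below all 3 shSCR libraries, and the largest gap was to shSCR replicate 1. The log2 fold change was −0.18 ± 0.083 (SE), with a 95% interval of −0.36 to 0.0069 (unadjusted p = 0.0577, adjusted p = 0.681, edgeR). Groups that did not overlap, with shG9a_1 below shSCR, were found for 4 of the 50 genes, against 7.54% of all genes tested. These 4 were TTK, CENPE, PTTG1 and HMMR.

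The NDC80 complex, the rod of 4 proteins that grips microtubules at the kinetochore, held the gene with the largest difference in shG9a_4. NUF2, one of its subunits, had 79.7, 83.6 and 73.02 CPM in shG9a_4, 70.2, 70.6 and 72.2 CPM in shG9a_1, against 67.4, 64.4 and 65.4 CPM in shSCR. All 3 shG9a_4 libraries were above all 3 shG9a_1 libraries, which were above all 3 shSCR libraries. The means were 78.8 ± 5.36 CPM in shG9a_4, 71.004 ± 1.06 CPM in shG9a_1, against 65.7 ± 1.52 CPM in shSCR (SD, n = 3 each). Its log2 fold change in shG9a_4 came to 0.26 ± 0.064 (SE), with a 95% interval of 0.12 to 0.40 (unadjusted p = 0.00188, adjusted p = 1.00, edgeR). In shG9a_1 it was 0.11 ± 0.064 (SE, unadjusted p = 0.111, adjusted p = 0.756). Over all the alternative settings the log2 fold change in shG9a_4 stayed between 0.21 and 0.32, with an adjusted p of at least 0.306. Groups that did not overlap, with the hairpin above shSCR, were found in shG9a_4 for NUF2 alone of the 50 genes (3.25% of all genes) and in shG9a_1 for NUF2 alone (7.15% of all genes). NUF2 was likewise the only one of the 50 for which all 6 hairpin libraries lay above shSCR (1.28% of all genes). EHMT2 was lowest in shG9a_1 and NUF2 was highest in shG9a_4, and a link between their levels was not tested.

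For the other 3 subunits of that complex the groups overlapped. NDC80 had 62.04, 73.95 and 63.6 CPM in shG9a_4, 56.2, 57.97 and 71.04 CPM in shG9a_1, against 59.2, 60.6 and 66.5 CPM in shSCR. SPC24 had 50.4, 52.9 and 53.5 CPM in shG9a_4, 45.1, 50.4 and 55.8 CPM in shG9a_1, against 52.1, 54.9 and 56.8 CPM in shSCR. SPC25 had 15.8, 16.9 and 15.97 CPM in shG9a_4, 16.98, 16.5 and 16.05 CPM in shG9a_1, against 17.7, 18.1 and 16.7 CPM in shSCR. The highest library of NDC80 was one of shG9a_4 and that of SPC25 one of shSCR. Their log2 fold changes in shG9a_4 were 0.10 for NDC80, −0.062 for SPC24 and −0.11 for SPC25, the lowest of the 50. At SPC24 25.6% of the stranded reads lay on the opposite strand, the largest share in the list, so its level depends on the strand being counted.

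CENPA, the histone H3 variant that marks the centromere, had 26.9, 30.3 and 31.8 CPM in shG9a_4, 25.2, 26.98 and 28.9996 CPM in shG9a_1, against 28.9, 27.4 and 29.996 CPM in shSCR. CENPE, a kinesin that carries chromosomes to the spindle equator, had 244, 299 and 255 CPM in shG9a_4, 244, 244 and 256 CPM in shG9a_1, against 265, 271 and 258 CPM in shSCR. The shG9a_1 libraries of CENPE lay just below those of shSCR, with a log2 fold change of −0.094 (unadjusted p = 0.247, edgeR), while shG9a_4 held both its highest and one of its lowest libraries. CENPF, a large protein of the outer kinetochore, had 832, 937 and 900.2 CPM in shG9a_4, 729, 718 and 882 CPM in shG9a_1, against 913, 774 and 862 CPM in shSCR. CENPF had the largest log2 fold change of shG9a_4 against shG9a_1, at 0.20 ± 0.095 (SE, unadjusted p = 0.0638, adjusted p = 1.00, edgeR), though shG9a_1 replicate 3 lay inside the range of shG9a_4. In shG9a_4 against shG9a_1 the groups did not overlap for 2 of the 50 genes, NUF2 and HMMR, both higher in shG9a_4 (5.06% of all genes did so).

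The chromosomal passenger complex corrects faulty attachments and later moves to the midzone for cytokinesis. Of its 4 genes 3 were lower in shG9a_4 than in shSCR and 3 were lower in shG9a_1, none past the threshold. AURKB, its kinase, had 38.5, 32.4 and 42.3 CPM in shG9a_4, 36.6, 34.9 and 40.99 CPM in shG9a_1, against 38.5, 41.4 and 40.7 CPM in shSCR. BIRC5, the gene of survivin, had 127, 128 and 137 CPM in shG9a_4, 121, 128 and 146 CPM in shG9a_1, against 134, 132 and 143 CPM in shSCR. INCENP, its scaffold, had 59.8, 52.4 and 66.1 CPM in shG9a_4, 52.6, 62.3 and 66.2 CPM in shG9a_1, against 61.8, 54.8 and 58.9 CPM in shSCR. For all of these both the lowest and the highest library were hairpin libraries, and the range of each hairpin group overlapped that of shSCR. CDCA8, the gene of borealin, ranged over 40.5 to 53.9 CPM.

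**Figure D3:**
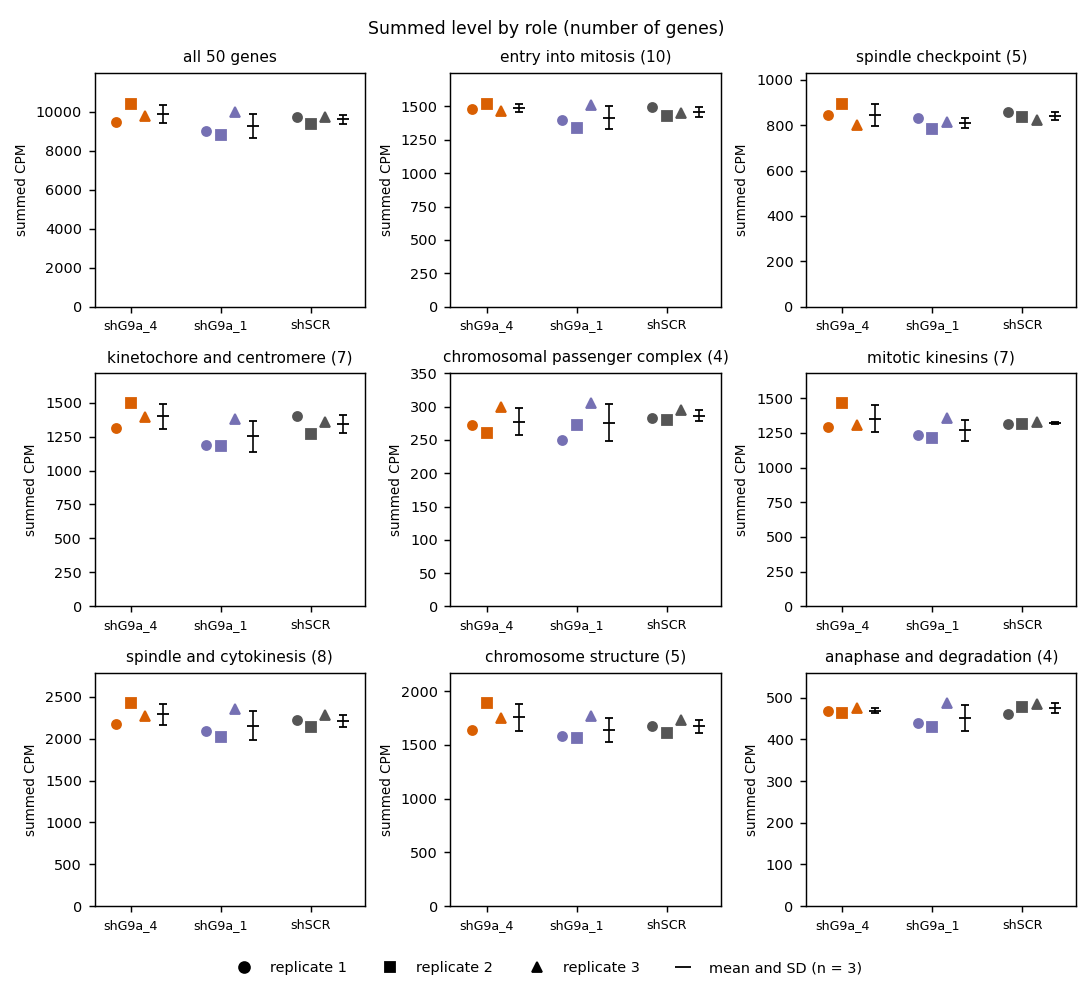
Summed CPM of all 50 genes and of each of the 8 roles in every library, by hairpin, with the number of genes in brackets. Shapes mark the replicate number, and bars show the mean and SD of 3 replicates. In every panel the 3 groups overlap.

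The mitotic kinesins move and shape the spindle. All 7 were slightly higher in shG9a_4 than in shSCR, with log2 fold changes of 0.017 to 0.070, and 6 of 7 were slightly lower in shG9a_1, with a range of −0.078 to 0.039. KIF11, the motor that pushes the spindle poles apart, had 226, 259 and 219 CPM in shG9a_4, 215, 213 and 228 CPM in shG9a_1, against 238, 230.1 and 224 CPM in shSCR. KIF20A, a kinesin of the central spindle, had 220.4, 270.4 and 234 CPM in shG9a_4, 205, 214 and 249 CPM in shG9a_1, against 214, 239.8 and 244 CPM in shSCR. KIF20B, also of the midzone, had 220.1, 247 and 215 CPM in shG9a_4, 212, 213 and 225 CPM in shG9a_1, against 227, 223 and 215 CPM in shSCR. In these 3 genes shG9a_4 replicate 2 was the highest of the 9 libraries, and the other libraries of the 3 groups were interleaved. KIF2C, which depolymerises microtubules at centromeres, ranged over 100.2 to 119 CPM, KIF4A over 68.3 to 82.7 CPM, KIF14 over 235 to 289.98 CPM and KIF23, of the centralspindlin complex, over 172 to 202 CPM.

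Among the spindle and cytokinesis genes HMMR, the gene of RHAMM, which binds hyaluronan at the cell surface and microtubules at the spindle, had the lowest p of the list in shG9a_1. It had 207, 233 and 195 CPM in shG9a_4, 191, 188 and 190.1 CPM in shG9a_1, against 219, 218 and 204 CPM in shSCR. The 3 shG9a_1 libraries were nearly alike and lay below all other 6. The log2 fold change in shG9a_1 was −0.17 ± 0.072 (SE), with a 95% interval of −0.33 to −0.014 (unadjusted p = 0.0355, adjusted p = 0.642, edgeR). With the replicate number as a block the adjusted p was 0.252. In shG9a_4 the log2 fold change was −0.012, with the groups overlapping.

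TPX2, which activates AURKA on the spindle, had 213, 248 and 262 CPM in shG9a_4, 210.3, 215 and 268 CPM in shG9a_1, against 218, 236 and 259.9 CPM in shSCR. Its replicate 1 was the lowest and its replicate 3 the highest in each group. ECT2, which switches on RhoA for cytokinesis, had 246, 261 and 222 CPM in shG9a_4, 237, 223 and 237 CPM in shG9a_1, against 246, 226 and 223 CPM in shSCR. ANLN, the scaffold of the contractile ring, had 496, 553 and 534 CPM in shG9a_4, 494, 473 and 589 CPM in shG9a_1, against 475, 478 and 521 CPM in shSCR. Its highest library was shG9a_1 replicate 3 and its lowest shG9a_1 replicate 2, so one hairpin group spanned the whole range. ASPM, a spindle pole protein, ranged over 389 to 489 CPM and DLGAP5, which stabilises the fibres at kinetochores, over 158 to 202 CPM. PRC1, which bundles midzone microtubules, ranged over 225 to 268 CPM, and RACGAP1, of centralspindlin, over 152 to 175 CPM.

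The genes of chromosome structure shape and untangle the chromosomes for division. TOP2A, the topoisomerase that untangles sister chromatids, had 702, 810.1 and 725 CPM in shG9a_4, 673, 664 and 764 CPM in shG9a_1, against 694, 677 and 725 CPM in shSCR. SMC4, a core subunit of condensin, had 424, 482 and 438 CPM in shG9a_4, 408, 400.2 and 429 CPM in shG9a_1, against 449, 406 and 431 CPM in shSCR. NCAPG, of condensin I, had 214, 228 and 205 CPM in shG9a_4, 208, 188 and 207 CPM in shG9a_1, against 211, 198 and 212 CPM in shSCR. In all 3 the highest library was shG9a_4 replicate 2 and the lowest shG9a_1 replicate 2. NCAPH, the other condensin I subunit of the list, ranged over 48.4 to 56.4 CPM. MKI67, the gene of the proliferation antigen Ki-67, which coats mitotic chromosomes, had 242, 313 and 326 CPM in shG9a_4, 243, 265 and 310.1 CPM in shG9a_1, against 268, 275 and 305 CPM in shSCR. Replicate 1 was the lowest and replicate 3 the highest in each of the groups. Its log2 fold change was 0.057 in shG9a_4, with a 95% interval of −0.21 to 0.32, and −0.052 in shG9a_1, with one of −0.31 to 0.21.

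The genes of anaphase and degradation were all 4 lower in shG9a_1 than in shSCR, and 3 of 4 were lower in shG9a_4, none past the threshold. CDC20, which activates the anaphase-promoting complex, had 198, 190.3 and 198 CPM in shG9a_4, 189, 188 and 212 CPM in shG9a_1, against 188, 206 and 201 CPM in shSCR. UBE2C, the ubiquitin-conjugating enzyme of that complex, had 59.7, 60.6 and 63.2 CPM in shG9a_4, 56.4, 57.2 and 65.6 CPM in shG9a_1, against 63.1, 63.96 and 65.7 CPM in shSCR. Both hairpin groups overlapped shSCR in these 2 genes. PTTG1, the gene of securin, the inhibitor of separase, had 154, 160.2 and 149 CPM in shG9a_4, 149, 134 and 151 CPM in shG9a_1, against 152, 153 and 157 CPM in shSCR. Its shG9a_1 libraries lay below those of shSCR by a narrow margin. ESPL1, the gene of separase itself, had 56.01, 51.7 and 65.2 CPM in shG9a_4, 44.4, 50.1 and 57.96 CPM in shG9a_1, against 58.1, 54.1 and 61.8 CPM in shSCR. It had the lowest log2 fold change of the list in shG9a_1, at −0.19 ± 0.11 (SE), with a 95% interval of −0.43 to 0.054 (unadjusted p = 0.115, adjusted p = 0.757, edgeR). Its replicate 3 was the highest library of every group.

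**Figure D4:**
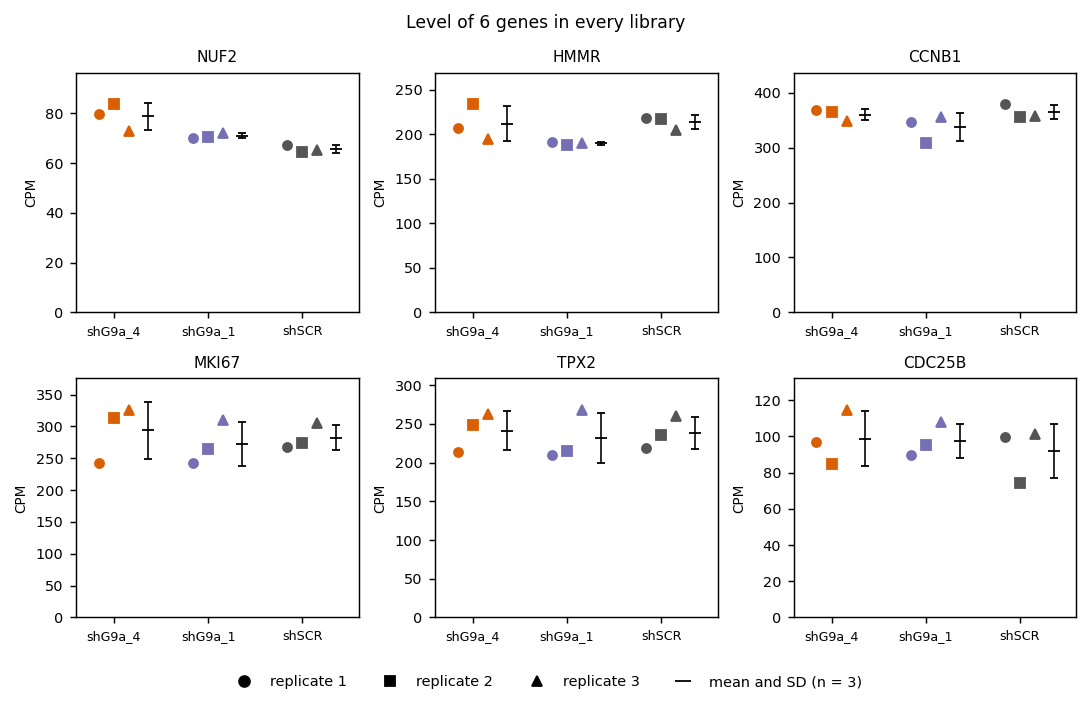
CPM of NUF2, HMMR, CCNB1, MKI67, TPX2 and CDC25B in every library, by hairpin, with shapes for the replicate number and bars for the mean and SD of 3 replicates. NUF2 and HMMR have groups that do not overlap in some comparisons, while MKI67 and TPX2 are lowest in replicate 1 and highest in replicate 3 under each hairpin.

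Genes around the mitotic programme were also measured. None of the following lists had a gene past the threshold with either hairpin in edgeR. Over all genes tested, 49.2% of the log2 fold changes were negative in shG9a_4 and 49.8% in shG9a_1. Of 28 other kinetochore genes 17 were lower in shG9a_4 and 25 in shG9a_1, where SKA3, of the SKA complex that couples kinetochores to microtubules, had a log2 fold change of −0.15 (adjusted p = 0.634, edgeR) and MIS12, which links the kinetochore to the centromere, one of −0.19 (adjusted p = 0.665). Of 16 cohesin and condensin genes 8 were lower in shG9a_4 and 14 in shG9a_1, with SMC3, a core subunit of cohesin, at −0.13 in shG9a_1 (adjusted p = 0.717, edgeR). Of 17 genes of the anaphase-promoting complex 9 were lower with each hairpin. Of 12 DREAM and MuvB genes 7 were lower in shG9a_4 and 9 in shG9a_1, with LIN9, a MuvB core subunit, at 62.7 CPM in shG9a_4, 55.4 CPM in shG9a_1 and 64.7 CPM in shSCR on average (log2 fold change −0.22 in shG9a_1, adjusted p = 0.633, edgeR). Of 25 spindle assembly and centrosome genes 12 were lower in shG9a_4 and 21 in shG9a_1. The lowest p was that of CEP152, a centriole duplication gene, at −0.24 in shG9a_1 (adjusted p = 0.579, edgeR). PLK4, the kinase of centriole duplication, followed at −0.20 (adjusted p = 0.595, edgeR). At an unadjusted p under 0.05 in shG9a_1 were 4 of these 25, all lower (16%, against 7.5% of all genes). In the lists before it the share ran from 0% to 8.33%. In shG9a_4 none of these lists had such a gene (2.38% of all genes).

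Inhibitors of the cycle were measured as well. Of 11 genes tested of G2 checkpoint and CDK inhibition 8 were higher in shG9a_4 and 7 in shG9a_1, with none past the threshold. CDKN1A, the gene of the CDK inhibitor p21, averaged 282 CPM in shG9a_4, 348 CPM in shG9a_1 and 262 CPM in shSCR, with a log2 fold change of 0.41 ± 0.13 (SE) in shG9a_1 (unadjusted p = 0.00883, adjusted p = 0.592, edgeR). The list most like the mitotic one is that of DNA replication and G1/S genes, which are also periodic. Of its 47 genes 44 were lower in shG9a_4 (93.6%, median log2 fold change −0.068) and 45 in shG9a_1 (95.7%, median −0.12), and 0 passed with edgeR. Their summed level was 5004, 4826 and 4900 CPM in shG9a_4, 4781, 4523 and 5064 CPM in shG9a_1, against 5042, 5076 and 5134 CPM in shSCR. Replicate 3 of shG9a_1 thus lay within the range of shSCR, and the shG9a_4 libraries lay below it. How far the counts of this list depend on single libraries was not tested. At an unadjusted p under 0.05 were 1 of the 47 in shG9a_4 (2.13%, against 2.38% of all genes), which was higher, and 12 in shG9a_1 (25.5%, against 7.5%), of which 11 were lower and 1 higher. The lowest p of these 12 was that of GMNN, the gene of the licensing inhibitor geminin, at −0.25 (adjusted p = 0.592, edgeR). In shG9a_4 the mitotic genes thus had 32% of their log2 fold changes below 0 and the replication genes 93.6%, with PCNA, the sliding clamp of replication, an exception at 0.22 (adjusted p = 1.00, edgeR). The difference between these lists was not tested.

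The authors' deposited table of each hairpin against shSCR listed 36 of the 50 genes. In it a posterior probability of different expression over 0.95 was given to 1 of the 36 with shG9a_4, NUF2 at a fold of 1.19 (0.614% of all genes in the authors' deposited table). With shG9a_1 it was given to 1 of the 36, HMMR at a fold of 0.881 (3% of all genes in the authors' deposited table). Just under 0.95 with shG9a_1 were NUF2, at 0.948 with a fold of 1.07, and CENPE, at 0.909 with a fold of 0.930. The folds of the 36 genes in the authors' deposited table ran from 0.935 to 1.19 with shG9a_4 and from 0.87 to 1.07 with shG9a_1. Over all genes shared with the edgeR fit, the direction of the fold was the same for 95.1% of 9027 genes in shG9a_4. In shG9a_1 it was the same for 94.7% of 9028 genes. This share was not computed for the 36 genes alone.

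The libraries also differed by the replicate number of the labels, which no label ties to a day or a batch. Those numbered 3 were the shallowest, at 53065611 to 54477100 reads in genes, against 62486212 to 76958831 in the others. They also had the largest shares of unmapped reads, at 3.67 to 4.34%, against 2.75 to 3.21%. The part of these library properties in the differences between numbers was not tested. In a fit with hairpin and number together, 2 of the 50 genes differed between the numbers, MKI67 (adjusted p = 0.0380, edgeR F-test) and TPX2 (adjusted p = 0.0269), against 7.47% of all genes. MKI67 averaged 314 ± 11.2 CPM in the replicates numbered 3, 284 ± 25.4 CPM in those numbered 2 and 251 ± 14.8 CPM in those numbered 1 (SD, n = 3 each). For number 3 against number 1, where 4.34% of all genes passed, MKI67 rose by 0.32 ± 0.069 on the log2 scale (SE, adjusted p = 0.0254, edgeR) and TPX2 by 0.30 ± 0.061 (SE, adjusted p = 0.019). For number 3 against number 2, where 8.11% of all genes passed, CDC25B rose by 0.35 ± 0.083 (SE, adjusted p = 0.027, edgeR). For number 2 against number 1 0 of the 50 passed with edgeR, against 1.62% of all genes. Of the other lists, PKMYT1 (adjusted p = 0.0471, edgeR), the gene of the kinase MYT1 that inhibits CDK1, and SFN (adjusted p = 0.0196), the gene of the p53 target 14-3-3 sigma, also differed between the numbers. These counts depend on single libraries, and the number called between replicate numbers was 0 of 50 without shG9a_4 replicate 1, shG9a_4 replicate 3, shG9a_1 replicate 3, shSCR replicate 2 or shSCR replicate 3, and 1 of 50 without shG9a_1 replicate 1. With DESeq2 3 of the 50 passed, MKI67, TPX2 and CDC25B, against 8.84% of all genes, with the likelihood ratio test 4 (12.6% of all genes) and without the filter 6 (8.03%).

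Between numbers 3 and 1 the 3 libraries did not overlap for 20 of the 50 genes that were higher in number 3 (40%, against 13% of all genes) and for 3 that were lower, CCNA2, MAD2L1 and ECT2 (6%, against 14.2%). Of the 20, 3 belong to the chromosomal passenger complex, AURKB, BIRC5 and CDCA8, and the others include PLK1, AURKA, TOP2A and UBE2C. Between numbers 3 and 2 they did not overlap for 7 that were higher (14%, against 12.2%), CDC25B, PLK1, BIRC5, CDCA8, TPX2, FOXM1 and ESPL1, and for 2 that were lower, BUB3 and MAD2L1 (4%, against 14.5%). MAD2L1 was thus lowest in number 3, at a log2 fold change of −0.22 against number 1 (adjusted p = 0.0667, edgeR).

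The base composition of the transcripts moved with these differences. Over the 50 genes the log2 fold change of number 3 against number 2 had a Spearman correlation of 0.71 with transcript GC content. For these genes GC content was that of the longest protein-coding transcript. Over all genes with a GC value the correlation was 0.30. Points share the same 6 libraries, so this is a description of those libraries. The 10 genes richest in GC (51.4 to 59.6%), which include CDC25B, PLK1, ESPL1, FOXM1, AURKB and BIRC5, were all higher in number 3 than in number 2, with a median log2 fold change of 0.18. The 10 poorest in GC (34.2 to 38.4%), which include CENPE, HMMR, CDK1, ASPM and KIF11, had a median of −0.055, with 6 lower. For number 3 against number 1 the correlation was 0.64 over the 50 genes and 0.23 over all genes with a GC value. For the hairpins the correlation over the 50 genes was −0.32 in shG9a_4 and −0.065 in shG9a_1. Over all genes with a GC value it was −0.093 in shG9a_4 and 0.027 in shG9a_1. The part of base composition in the differences was not tested.

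**Figure D5:**
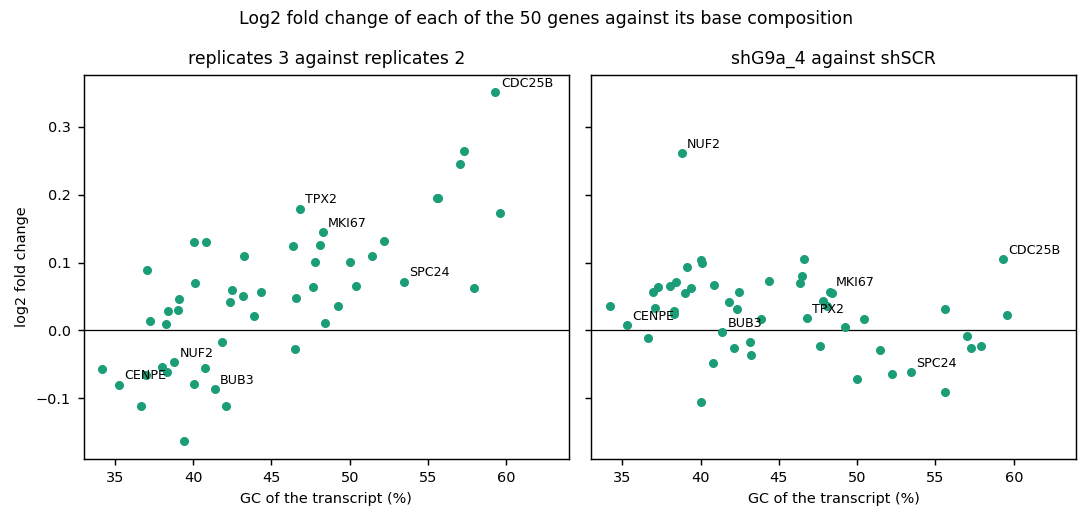
Log2 fold change of each of the 50 genes against the GC content of its longest protein-coding transcript. The left panel shows replicates numbered 3 against those numbered 2, and the right panel shG9a_4 against shSCR. On the left the points climb from about CENPE to CDC25B at 0.35, and on the right NUF2 stands alone at 0.26.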

How the data were processed

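Total RNA of the 9 cultures was sequenced after ribosomal RNA removal with a stranded kit, as read pairs with ends of 75 bases (labels' protocols). The authors deposited integer read counts for each gene in the table layout of the aligner STAR. GRCh37, hg19, DESeq, R 3.3.1, edgeR 3.14.0 and STAR 2.5.2a are named in the submitters' processing notes, while no source used here gives the annotation release. The authors' deposited tables for each hairpin hold posterior probabilities, a score from 0 to 1, and a linear fold, a ratio.

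Reverse-strand counts were fitted in R 4.3.3 with edgeR 4.0.16 (TMM scaling, filterByExpr, quasi-likelihood F-test, a mean per group, 6 residual degrees of freedom), with p-values adjusted by Benjamini and Hochberg over all 18435 genes at 0.05. Reads that STAR placed in 4 summary classes stayed out. Levels are CPM, read counts on TMM-scaled library sizes, and standard errors come from the spread between replicates in the fit. Symbols came from a table that matched 55277 of 60308 IDs. GC content and length are of the longest protein-coding transcript in GENCODE, or of the longest transcript where a gene has no protein-coding one. The script was tested on simulated data.

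Replicates are biological according to the series' design text. Over all genes tested, libraries with the same number deviated together, with correlations of 0.178 to 0.461 in all 9 pairs. The number was therefore used as a block in an alternative fit. The highest correlation of a pair with different numbers was 0.169, between a shG9a_1 library and a shG9a_4 library. Over the mitotic genes alone the same 9 pairs ran from −0.196 to 0.836, so not every pair deviated together for this list. Alternatives were DESeq2 1.42.0, a likelihood ratio test, voom (limma 3.58.1), other scalings, no filter, unstranded counts and leaving out each library. The genes, roles and other lists were chosen with earlier results of these data known. Named with values in every library are genes listed by role, the 3 highest and 3 lowest in each comparison and those past the threshold.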

Additional observations from a re-analysis of the deposited data

How the results depend on the processing

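None of the 50 genes passed in any of the 4 hairpin comparisons under any of the 17 alternatives, and the lowest adjusted p was 0.251, with the replicate block. The median log2 fold change of the 50 ran, over all alternatives, between −0.0048 and 0.057 in shG9a_4, between −0.118 and −0.028 in shG9a_1, between 0.051 and 0.13 in shG9a_4 against shG9a_1 and between −0.046 and 0.0076 with both hairpins. With a single library left out, the number of negative log2 fold changes ran from 14 to 27 in shG9a_4 and from 32 to 46 in shG9a_1. The counts over all genes moved more, and the cause was not tested. In shG9a_4 against shSCR they were 21 with DESeq2, 17 with the likelihood ratio test, 49 without the filter, 1 with unstranded counts, 14 with the replicate block and 0 to 7 without single libraries. In shG9a_1 they were 80, 42 and 288 in the first 3 of these, 143 with the replicate block and 0 to 10 without single libraries. In shG9a_4 against shG9a_1 they were 6, 5 and 106, and 0 without single libraries. With both hairpins they were 40, 22 and 126, 34 with the replicate block and 0 to 11 without single libraries. Between replicate numbers, 4 of the 50 passed with the likelihood ratio test and 6 without the filter, 2328 and 2874 over all genes, and without single libraries 0 to 3 of the 50 and 435 to 2109 genes passed. The adjusted p without single libraries ran from 0.00946 to 0.196 for MKI67, from 0.00898 to 0.204 for TPX2 and from 0.00936 to 0.307 for CDC25B. How much counting error adds to the spread between replicates, at a depth of 53065611 reads or more, was not tested.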
